A study of Mus musculus with 2 samples.

Results

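Alternative activation is the state that macrophages take up under interleukin-4 and interleukin-13, which signal through the IL-4 receptor and the transcription factor STAT6. Its usual markers in the mouse are an arginase, a chitinase-like protein and a set of sugar-binding and scavenger receptors, and such cells are known for clearing debris and for tissue repair. Several of the markers also answer to other signals, among them hypoxia, lactate and the C/EBP factors for Arg1 and glucocorticoids or IL-10 for Cd163. In the kidney the resident macrophages carry complement C1q, whereas monocytes that enter after injury carry little of it.

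The 7 genes described here were Arg1, Chil3, Mrc1, Mgl2, Cd209a, Cd163 and Gpnmb, out of 32285 genes counted. They were taken by symbol and had been chosen by their pooled levels in these same macrophage-like cells of both libraries, so those levels are a description and were not tested. scRNAseq was performed on 2 libraries, 1 from a control kidney and 1 from an ischemic kidney of male wildtype C57BL/6J mice aged 19 weeks. The ischemic kidney had 27 min of left unilateral ischemia and 24 h of reperfusion, and the control kidney was the contralateral uninjured one, with no sham-operated mouse. The labels do not state whether both kidneys came from 1 mouse. Neither kidney was sorted, and cells were freed with liberase, hyaluronidase, DNase and trypsin.

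After filters on genes, UMIs and mitochondrial UMIs, 12586 control and 13116 ischemia cells with 124679362 and 128733541 UMIs were kept, at a median of 3839 and 2138.5 UMIs per cell. A UMI is a molecular tag that counts 1 captured transcript. Only 58 barcodes were shared by both libraries. Levels are given as CPM, the UMIs of a gene summed over a set of cells per 1000000 UMIs of that set. Brackets after a level hold its 95% interval from the exact Poisson distribution. With 1 library per condition there is no replicate spread, so every interval reflects the counting of UMIs and nothing else. A 3' library counts transcript ends, so CPM is not scaled to gene length and levels were compared between groups of cells, not between genes. Genes with 100 or more UMIs in the cells compared were called when the levels differed by 2-fold or more.

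Clustering gave 873 macrophage-like cells, 290 in the control (2.30% of kept cells) and 583 in the ischemic kidney (4.44%). Their median depth was 5546.5 UMIs in control and 8580 in ischemia. All but 1 of the 873 cells held 3 or more UMIs of proximal tubule (PT) or thick ascending limb (TAL) genes, and the summed CPM of 12 PT genes in them was 6996 in control and 4015 in ischemia. The part of this tubule RNA in the levels was not tested. As the background for shares of cells with a UMI, TAL-like cells, which should lack the 7 genes, were counted. Among 483 ischemia TAL-like cells with a median of 24707 UMIs, 0 to 3 held a UMI of any of the 7 genes, and among 489 control cells 0 or 1 did, at a median of 20064 UMIs.

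The 7 genes differed in the share of their UMIs that lay in macrophage-like cells. Such a share does not show alternative activation, and the set also holds the monocyte-like and dendritic cell-like cells described further on. Of the UMIs of all genes, 1794851 of 124679362 in control and 5387350 of 128733541 in ischemia lay in macrophage-like cells. Macrophage-like cells held most UMIs of Mgl2 and Cd209a in both libraries, 96.0% and 97.8% in control and 93.5% and 95.9% in ischemia. They held 96.1% of Arg1 and 97.1% of Chil3 UMIs in ischemia, and 74.1% and 76.6% of Cd163 UMIs. For Gpnmb they held 0% of 12 UMIs in control and 2.67% of 187 UMIs in ischemia, where most of its UMIs lay in proximal tubule cells. Mrc1 stood between, with 48.0% and 88.9%, and the control Chil3 share was 68.0%, with 45 of the 150 UMIs in a single endothelial (EC-like) cell.

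**Figure D1:**
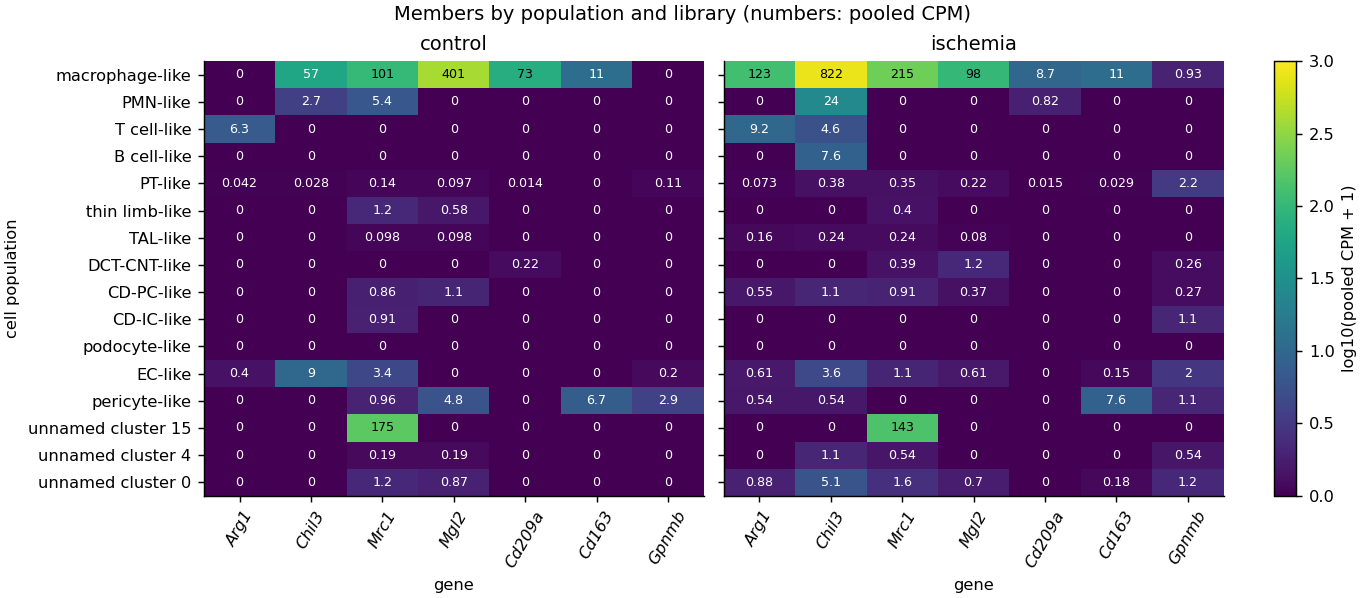
Pooled CPM of the 7 genes (columns) in each cell population (rows) of the control and ischemia library, with color showing log10(CPM + 1) and the number giving the CPM. Arg1 and Chil3 are high in ischemia macrophage-like cells, Mrc1 is also high in unnamed cluster 15 of both libraries, and Gpnmb is above 2 CPM in PT-like cells of the ischemic kidney.

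Between ischemia and control macrophage-like cells, Arg1, Chil3 and Mrc1 were higher and Mgl2 and Cd209a lower, each by 2-fold or more. These 5 were all of the 7 genes with 100 or more UMIs. Of 7068 genes compared in the same cells, 9.11% were past 2-fold, 5.49% higher and 3.62% lower. Since the genes were chosen with these levels known, nothing is read from their share.

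Arg1 encodes arginase 1, the enzyme that splits arginine into urea and ornithine. The files give it as ENSMUSG00000019987, a gene at chr10:24915221-24927484 on the minus strand of mm10, the build the files use. Control macrophage-like cells held 0 UMIs of it, where 3 counts would be 1.67 CPM, and ischemia cells held 664 UMIs, or 123 CPM (114 to 133). The intervals did not overlap, and the ischemia level was 73.7 times the control level at 3 counts (exact lower limit of the ratio 59.8). In ischemia 59 of 583 cells carried the transcript, 10.1% (Clopper-Pearson 7.79 to 12.9%), with a mean of 11.3 UMIs per positive cell, and 8 cells held at least 50% of the UMIs. With every cell thinned to 1000 UMIs, which left out 6 control and 11 ischemia cells, 4.72% of ischemia and 0% of control cells were positive. In the rest of the kidney only 7 control and 27 ischemia UMIs of Arg1 were found, and the highest level was 9.16 CPM in ischemia T cell-like cells, from 4 UMIs.

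Chil3 (ENSMUSG00000040809, chr3:106147554-106167564, minus strand) encodes Ym1, a chitinase-like lectin without chitinase activity. Its level was 56.8 CPM (46.3 to 69.0) in control and 822 CPM (798 to 847) in ischemia macrophage-like cells, from 102 and 4431 UMIs. The ischemia level was 14.5-fold higher (95% interval 11.9 to 17.8) and cells with a UMI were 8 (2.76%) in control and 195 (33.4%) in ischemia. The control value rested on few cells, since 3 of them held 83.3% of its UMIs and 1 cell alone held 41. Without the 3 highest cells of each library the ratio was 78.8. PMN-like cells, the neutrophils of this tissue, carried 24.5 CPM in ischemia (16.5 to 34.9), far below the macrophage-like level.

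Mrc1 (ENSMUSG00000026712, chr2:14229392-14332057, plus strand) encodes the mannose receptor CD206, and the miRNA gene Mir511 lies within it on the same strand. Its level was 101 CPM (87.2 to 117) in control and 215 CPM (203 to 228) in ischemia macrophage-like cells, from 182 and 1157 UMIs, a ratio of 2.12 (1.81 to 2.49). This difference depended on how cells were weighted. Cells with an Mrc1 UMI made up 30.0% in control and 26.6% in ischemia, 11.3% and 8.74% after thinning, and the mean per positive cell was 2.09 and 7.46 UMIs. The ratio of the means of each cell's own CPM was 1.52 and that of thinned counts 1.27 (0.854 to 1.92), both under 2-fold.

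The 250 bases before the RefSeq start of Chil3 and Mrc1 are shown because both levels were higher after ischemia and each holds letters of a myeloid or STAT-type motif. They come from a RefSeq promoter table for build GRCm38.p6 that held 6 of the 7 genes. Capitals mark matches on either strand to the STAT-type letters TTCNNNGAA or the PU-box letters GAGGAA, the core bound by the myeloid factor PU.1.
Chil3, chr3:106167565-106167814, minus strand: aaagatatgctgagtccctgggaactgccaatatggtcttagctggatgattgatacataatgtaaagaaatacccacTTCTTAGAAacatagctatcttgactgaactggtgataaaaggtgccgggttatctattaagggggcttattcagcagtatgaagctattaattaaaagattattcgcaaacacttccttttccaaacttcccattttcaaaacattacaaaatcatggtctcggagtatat
Mrc1, chr2:14229164-14229413, plus strand: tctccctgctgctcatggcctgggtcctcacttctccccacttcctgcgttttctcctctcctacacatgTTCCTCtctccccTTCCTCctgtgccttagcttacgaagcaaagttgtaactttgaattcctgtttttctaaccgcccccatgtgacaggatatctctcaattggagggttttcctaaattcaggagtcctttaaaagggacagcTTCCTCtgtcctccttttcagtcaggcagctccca
The Chil3 sequence held 1 STAT-type match, starting 172 bases before the start, and the Mrc1 sequence held 3 PU-box matches on the opposite strand, at 180, 167 and 35 bases. Of 32851 such sequences, 7.02% held the STAT-type letters and 23.3% the PU-box letters. The STAT6 form, whose spacer is 1 base longer, was in none of the 6 sequences and in 5.85% of all. Mgl2 held 1 PU-box match, and Cd209a, Cd163 and Gpnmb held neither motif.

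Mgl2 and Cd209a are C-type lectins that were lower after ischemia. Mgl2 (ENSMUSG00000040950, chr11:70130329-70137550, plus strand) is the galactose-type lectin CD301b, and its level was 401 CPM (372 to 432) in control and 98.2 CPM (90.0 to 107) in ischemia macrophage-like cells. The ischemia level was 0.245 of control (0.218 to 0.274), and cells with a UMI were 59.0% against 21.1%. Cd209a (ENSMUSG00000031494, chr8:3743397-3748984, minus strand), a mouse relative of DC-SIGN, was at 73.0 CPM (61.0 to 86.6) and 8.72 CPM (6.41 to 11.6), a ratio of 0.120 (0.0838 to 0.168). In ischemia 47 Cd209a UMIs were found, 63.8% of them in 3 cells. After thinning the shares were 30.3% and 7.69% for Mgl2 and 3.87% and 0.699% for Cd209a, in the same order.

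Cd163, the hemoglobin-haptoglobin scavenger receptor (ENSMUSG00000008845, chr6:124304656-124330527, plus strand), and Gpnmb, a lysosomal membrane glycoprotein (ENSMUSG00000029816, chr6:49036546-49070929, plus strand), had under 100 UMIs in these cells and were not called. Cd163 was at 11.1 CPM (6.81 to 17.2) in control and 11 CPM (8.34 to 14.1) in ischemia, a ratio of 0.983 (0.583 to 1.72). Only 5 control and 12 ischemia cells carried it, and 3 cells held 80.0% and 83.1% of the UMIs. Gpnmb was at 0 UMIs in control and at 5 UMIs in 4 cells in ischemia, too few for a fold.

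Macrophage-like cells were then split by C1q, the sum of C1qa, C1qb and C1qc, at 0.5% of a cell's UMIs. Of control cells 64.5% (187) and of ischemia cells 37.0% (216) were C1q-high, with 103 and 367 C1q-low. The cut is a range and not a cell type: 22 control and 42 ischemia cells lay between 0.25% and 0.5%, and 56 and 72 between 0.5% and 1%.

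**Figure D2:**
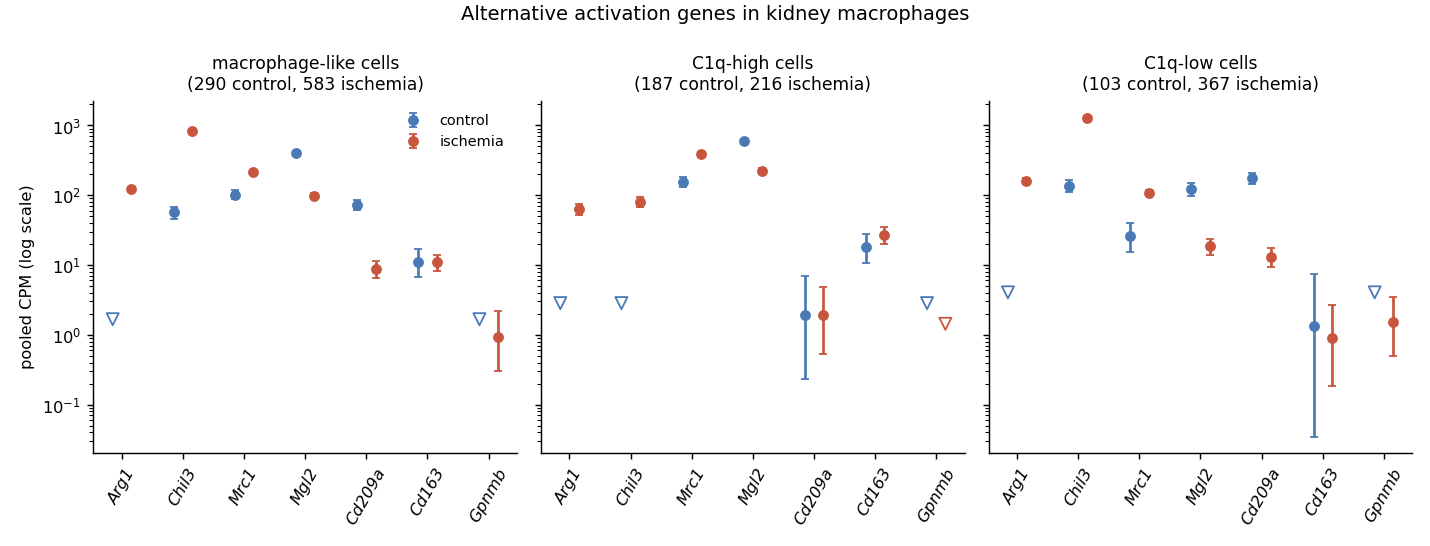
Pooled CPM on a log axis for the 7 genes in all macrophage-like, C1q-high and C1q-low cells of the control (blue) and ischemia (red) library. Points are levels, bars are exact 95% Poisson intervals and open triangles mark 0 UMIs, drawn at the level of 3 counts. Arg1 is at 0 in every control set, Chil3 is at 0 in control C1q-high cells and Mgl2 is lower in ischemia in all 3 sets.

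In both C1q classes the pooled levels of Arg1, Chil3 and Mrc1 were higher and that of Mgl2 lower in ischemia. The classes were not made up alike in both libraries, by the sub-clusters described further on: of C1q-low cells 18 of 103 in control and 243 of 367 in ischemia were monocyte-like, and 44 and 55 were dendritic cell-like. Of C1q-high cells 2 of 187 and 27 of 216 were monocyte-like. Within a class, makeup and level per cell therefore cannot be told apart from the pooled values. In C1q-high cells 4 of the 7 genes had 100 UMIs and all 4 were past 2-fold, 3 higher and 1 lower, beside 8.84% of 4083 genes (5.83% higher and 3.01% lower). In C1q-low cells 5 did and all were past 2-fold, 3 higher and 2 lower, beside 14.1% of 5217 genes (9.62% higher and 4.5% lower). The count in C1q-high cells was 2 at a cut of 1%, where Chil3 had 11 UMIs, and 2 without the 3 cells with most UMIs of each gene. Under both of these settings Arg1 and Chil3 had under 100 UMIs and were not called.

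Mrc1 was at 154 CPM (132 to 180) in control and 385 CPM (359 to 413) in ischemia C1q-high cells, and at 25.7 CPM (15.5 to 40.1) and 107 CPM (96.1 to 119) in C1q-low cells. The ratios were 2.49 (2.10 to 2.97) and 4.16 (2.63 to 7.0), and 1.98 and 2.32 as means of each cell's CPM. Thinned, they were 1.73 and 1.66. Mgl2 was at 596 and 224 CPM in C1q-high cells and at 123 and 18.5 CPM in C1q-low cells, ratios of 0.376 (0.333 to 0.425) and 0.150 (0.107 to 0.210). The monocyte-like cells, more numerous in ischemia, held 0 and 4 Mgl2 UMIs. Among C1q-high cells of the C1q macrophage-like sub-cluster alone, 175 in control and 161 in ischemia, Mgl2 was at 622 CPM (574 to 673) and 269 CPM (245 to 295).

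Arg1 and Chil3 were at 0 UMIs in the 187 control C1q-high cells, where 3 counts would be 2.84 CPM. In ischemia C1q-high cells they were at 62.7 CPM (52.4 to 74.4) and 80.0 CPM (68.3 to 93.1). A single cell held 86 of the 131 Arg1 UMIs and a single cell held 88 of the 167 Chil3 UMIs, and 15 and 58 UMIs lay outside the 3 highest cells. The 27 monocyte-like cells held 164 of these Chil3 UMIs. In C1q-low cells Arg1 was at 0 in control and 162 CPM (148 to 176) in ischemia, and Chil3 at 138 CPM (113 to 167) and 1292 CPM (1254 to 1332), 9.37-fold higher (7.70 to 11.5). Cd209a, which was almost confined to C1q-low cells, was at 174 CPM (146 to 207) in control and 13 CPM (9.43 to 17.6) in ischemia.

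The C1q classes also differed within each library. In control, C1q-low over C1q-high was 0.166 (0.0976 to 0.268) for Mrc1, 0.206 (0.164 to 0.258) for Mgl2 and 92.0 (25 to 768) for Cd209a. For Chil3 it was 48.5 with C1q-high cells put at 3 counts (exact lower limit 38.7). At a cut of 0.25% the Chil3 ratio was 4.53, since 1 cell between 0.25% and 0.5% held 31 of the 102 UMIs. These were 4 genes beside 14.3% of 2459 genes called (7.48% higher and 6.83% lower). In ischemia, C1q-low over C1q-high was 0.278 (0.244 to 0.315) for Mrc1, 0.0825 (0.0621 to 0.108) for Mgl2, 16.2 (13.8 to 19.0) for Chil3 and 2.58 (2.12 to 3.14) for Arg1. These were 4 genes beside 13% of 6107 (8.89% higher and 4.11% lower). The Arg1 ratio was 1.14 at a cut of 0.25% and 15.9 without the 3 highest cells of each set, so its size rested on few cells and on the cut. Cd163 was almost wholly C1q-high in ischemia, with 56 of 59 UMIs.

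Chil3 had lower levels at each step up the C1q range of the ischemia library. It was at 1543 CPM in the 224 cells with no C1q UMI, 1042 CPM up to 0.25%, 634 CPM up to 0.5%, 217 CPM up to 1%, 8.68 CPM up to 2% and 0 in the 12 cells above. Mrc1 had the other order at the ends, with 53.5 CPM in cells with no C1q UMI and 663 CPM above 2%. The latter rested on 12 cells, of which 1 held 51 of the 68 UMIs, and 327 CPM was found in the 132 cells between 1% and 2%.

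Clustering of the macrophage-like cells by themselves, without the 7 genes among the variable ones, gave 4 groups. These were C1q macrophage-like cells (190 control, 175 ischemia), monocyte-like cells (20 and 270), dendritic cell-like cells (44 and 57) and a group led by PT genes (36 and 81). Because the groups rest on all genes, levels between them are a description.

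Most Arg1 lay in the monocyte-like group, with 630 of 664 UMIs, 247 CPM (228 to 267) and 51 of 270 cells. The 20 control cells of that group held 0, where 3 counts would be 22.6 CPM. The ischemia level was 10.9 times that level (exact lower limit of the ratio 8.85). In the finer clustering described further on, 16 control cells lay in a group whose 112 ischemia cells also held 0 Arg1 UMIs. Only 5 control cells lay in the group with 642 of the 664 ischemia UMIs. Makeup and level per cell therefore cannot be told apart in this ratio. C1q macrophage-like cells of the ischemic kidney held 17 Arg1 UMIs in 4 cells, 9.49 CPM. Of the 131 Arg1 UMIs in C1q-high cells, 114 came from 27 monocyte-like cells above the C1q cut.

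Chil3 was at 693 CPM (559 to 850) in control and 1711 CPM (1660 to 1762) in ischemia monocyte-like cells, and at 0 and 1.68 CPM in C1q macrophage-like cells. The monocyte-like ratio of 2.47 (2.01 to 3.07) was well under the 14.5 of all macrophage-like cells and 3 of the 20 control cells held 92.4% of the control UMIs. Mrc1 in these cells was at 45.2 CPM (16.6 to 98.4) from 6 UMIs in control, 5 of them in 1 cell, and 166 CPM (151 to 183) in ischemia. Arg1, Chil3 and Mrc1 had 100 or more UMIs there and were past 2-fold, beside 18.6% of 3814 genes (13.6% higher and 5.01% lower). As for Arg1, makeup and level per cell cannot be told apart in these ratios. In this group Mgl2 was almost absent, with 4 UMIs in ischemia and 0 in control.

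Mrc1 was higher and Mgl2 lower in ischemia within the C1q macrophage-like group. Mrc1 was at 146 CPM (124 to 170) and 375 CPM (347 to 405), and Mgl2 at 572 CPM (529 to 619) and 254 CPM (231 to 279), ratios of 2.57 (2.16 to 3.07) and 0.444 (0.393 to 0.502). Both genes were past 2-fold, beside 8.48% of 3846 genes (5.64% higher and 2.83% lower). Cells with a Mgl2 UMI were 76.3% and 58.3%, while those with an Mrc1 UMI were 39.5% and 53.1%, at a median depth of 5328 and 8880 UMIs. Thinned, the Mgl2 shares were 40.5% (33.5 to 47.9%) and 23.0% (17 to 30.0%), and the Mrc1 shares were 14.7% (10.0 to 20.6%) and 16.7% (11.5 to 23.1%), with overlapping intervals.

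Most Cd209a lay in the dendritic cell-like group, at 318 CPM (264 to 381) in control and 74.7 CPM (53.8 to 101) in ischemia. The ratio was 0.235 (0.161 to 0.336), beside 6.34% of 1278 genes past 2-fold (4.38% higher and 1.96% lower), and positive cells were 23 of 44 and 10 of 57. Mgl2 in the same cells was at 170 and 88.9 CPM, a ratio of 0.524 (0.354 to 0.770). At a finer resolution of 0.5 the matching group of 32 control and 48 ischemia cells took no name from the marker lists. It held 120 control and 46 ischemia Cd209a UMIs. The 12 control and 12 ischemia cells that kept the dendritic cell name held 0 UMIs of Cd209a and of Mgl2. Pooled Mgl2 in the matching group was at 270 CPM (208 to 345) and 259 CPM (213 to 313), without the difference. That ischemia level rested on 1 cell with 54 of the 110 UMIs, whereas at the main resolution no dendritic cell-like ischemia cell held more than 14. Cells with a Mgl2 UMI in the matching group were 14 of 32 and 11 of 48.

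At the resolution of 0.5 the monocyte-like cells of the ischemic kidney divided into groups that carried different genes of the 7. An unnamed group of 159 ischemia and 5 control cells, led by Arg1, Fn1, Ecm1, Cxcl3, Ccl6 and Hilpda, held 642 of the 664 Arg1 UMIs, 395 CPM (365 to 427) in 52 cells. The 112 ischemia cells that kept the monocyte name, led by Adgre4, Ace, Ear2, Hp and Plac8, held 0 Arg1 UMIs but 2579 CPM of Chil3 (2478 to 2683), above the 1181 CPM (1129 to 1235) of the unnamed group. Mrc1 was at 261 CPM (236 to 287) in the unnamed group and 2.10 CPM (0.255 to 7.60) in the monocyte-named cells. The 16 control cells that kept the monocyte name held Chil3 at 843 CPM (680 to 1034). Their Mrc1 was at 9.16 CPM (0.232 to 51.1), from 1 UMI, so it was not lower than in ischemia. The number of control cells in the unnamed group, 5, gives no level to compare.

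**Figure D3:**
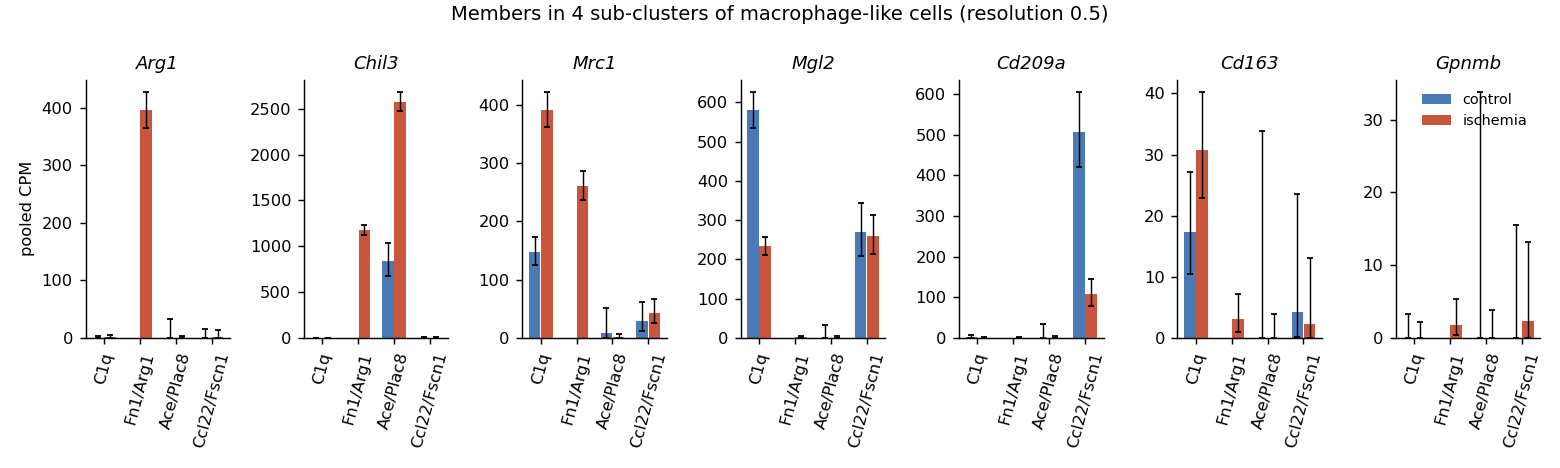
Pooled CPM of the 7 genes in 4 sub-clusters of macrophage-like cells at resolution 0.5 in the control (blue) and ischemia (red) library, with exact 95% Poisson intervals. Sub-clusters are labeled by genes picked from their 10 leading ones, and a library with under 10 cells in a sub-cluster is left out. The Ccl22/Fscn1 group was led by Klrd1, Cox6a2 and Cd209a, and the Fn1/Arg1 group by Arg1 itself. Arg1 stands in the Fn1/Arg1 group, Chil3 is highest in the Ace/Plac8 group at 2579 CPM, Mrc1 is highest in the C1q group and Cd209a in the Ccl22/Fscn1 group.

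In single cells of the ischemic kidney, Arg1-positive cells had higher shares with Chil3 and Mrc1 and a lower share with Mgl2 than Arg1-negative cells. Of 59 Arg1-positive macrophage-like cells, 39 (66.1%, interval 52.6 to 77.9%) held a Chil3 UMI, against 29.8% of Arg1-negative cells. For Mrc1 the shares were 45.8% (32.7 to 59.2%) and 24.4%, and for Mgl2 3.39% (0.413 to 11.7%) and 23.1%. Arg1-positive cells were deeper, at a median of 11605 against 8253 UMIs. Thinned to 1000 UMIs, 27 cells were Arg1-positive and the shares were 40.7% (22.4 to 61.2%) against 21.3% for Chil3, 18.5% (6.30 to 38.1%) against 8.26% for Mrc1 and 0% against 8.07% for Mgl2. After thinning the intervals of Arg1-positive and Arg1-negative cells overlapped for all 3 genes.

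Within the monocyte-like group alone, Chil3 was found at 70.6% (56.2 to 82.5%) of Arg1-positive and 67.1% (60.5 to 73.3%) of Arg1-negative cells. Mrc1 was at 47.1% (32.9 to 61.5%) against 12.3% (8.28 to 17.4%), and thinned at 20.8% against 5.69% with overlapping intervals. Cells from 1 library share their source, so no test was made of these shares.

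**Figure D4:**
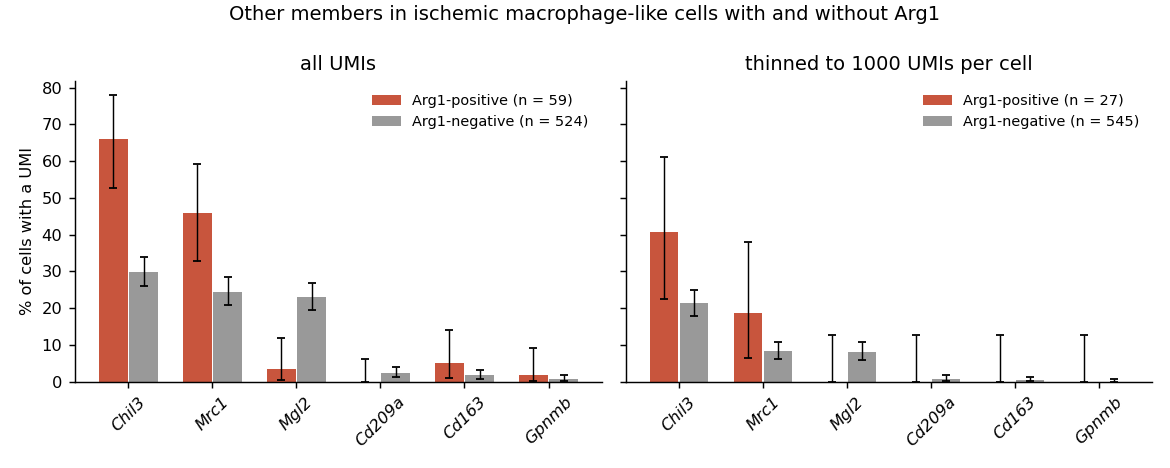
Percent of ischemia macrophage-like cells with a UMI of each other member, for Arg1-positive (red) and Arg1-negative (grey) cells, with all UMIs and with each cell thinned to 1000 UMIs. Bars are Clopper-Pearson intervals. Chil3 and Mrc1 are more frequent and Mgl2 less frequent in Arg1-positive cells with all UMIs, and the intervals overlap after thinning.

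Outside macrophages, Mrc1, Cd163 and Gpnmb are described here, and Chil3 in PMN-like and EC-like cells is given above. Mrc1 was at 175 CPM (148 to 205) in control and 143 CPM (114 to 177) in ischemia in unnamed cluster 15, 65 and 53 cells led by Ptn, Adamts5, Serpine2, Dkk2 and Itga8. This cluster held 147 of the 379 control Mrc1 UMIs, 38.8%, and 6.53% of those in ischemia. Its macrophage markers summed to 22.6 and 26.9 CPM, with 8 and 9 of 14 markers at 0 UMIs. The endothelial marker list scored highest in it, summing to 4846 and 5027 CPM. None of that list was among its 10 leading genes, so it took no name. Pericyte markers summed to 1110 and 1379 CPM, and injured PT markers to 1954 and 13294 CPM. Over all kept cells Arg1, Chil3, Mrc1, Cd163 and Gpnmb were past 2-fold higher and Cd209a lower, beside 11.9% of 15711 genes (8.1% higher and 3.77% lower). There Mrc1 was 3.32-fold higher in ischemia (2.96 to 3.74), a value that combines the number of macrophage-like cells with the level within them.

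Cd163 was at 6.74 CPM (2.71 to 13.9) in control and 7.62 CPM (4.17 to 12.8) in ischemia pericyte-like cells, from 7 and 14 UMIs. These were 25.9% and 18.2% of all Cd163 UMIs, and the intervals overlap those of macrophage-like cells.

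Most Gpnmb lay in the PT of the ischemic kidney. PT-like cells held 8 UMIs in 2 of 3936 control cells and 152 UMIs in 49 of 2799 ischemia cells. These were 0.111 CPM (0.0480 to 0.219) and 2.22 CPM (1.88 to 2.61), and the latter made up 81.3% of the ischemia Gpnmb UMIs. That share also reflects how many UMIs of all genes lay in PT-like cells. All kept ischemia cells pooled carried 1.45 CPM of Gpnmb, below the PT-like interval. For all kept control cells the pooled value was 0.0962 CPM, inside the PT-like interval. A single cell held 50 of the 152 UMIs, and 3 cells held 46.1%. Of the 49 positive cells 85.7% (72.8 to 94.1%) also held a UMI of Havcr1, the tubule injury gene KIM-1, against 67.5% (65.7 to 69.3%) of the other ischemia PT-like cells. The positive cells had a median of 52246 UMIs and the others 17449.5. Havcr1 per UMI was 469 and 416 CPM in these 2 sets. Gpnmb in ischemia macrophage-like cells was at 0.928 CPM (0.301 to 2.17), from 5 UMIs, and this interval overlaps that of PT-like cells.

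The other genes of these pathways came from 13 lists, counted between ischemia and control macrophage-like cells, where the median log2 ratio of all 7068 genes was 0.16. In the arginine, nitric oxide and polyamine list 3 of 11 genes were past 2-fold higher, Arg1 itself, Azin1 (2.34) and Srm (2.19), and 0 lower, with a list median of -0.01. Ass1, which remakes arginine from citrulline, was at 0.598 of control. In control this list summed to 2633 CPM over all kept cells and 1380 CPM in macrophage-like ones. The part of tubule RNA in the Ass1 ratio and the list median was not tested. Nos2, the arginine-consuming enzyme of classical activation, had 0 and 2 UMIs. Arg2, the other arginase, was at 4 and 95 UMIs.

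In the IL-4, IL-13 and STAT6 list 5 of 16 genes were higher and 1, Clec10a, lower (median 0.64). Fn1, fibronectin, had 20.1 CPM in control cells against 591 CPM in ischemia cells, and Tgm2, Ccl22 and Ccl24 were 4.81-fold, 4.15-fold and 11.7-fold higher (Ccl24 from 3 UMIs, interval 3.88 to 57.5). Il4, Il13 and Alox15 were at 0 UMIs in macrophage-like cells of both libraries. Over all kept cells Il4 had 27 and 21 UMIs and Il13 had 1 and 13. Retnla, another marker of this state, had 3 UMIs in control and 0 in ischemia. Nos2, Arg2 and Retnla were chosen after their values were seen.

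Of the IL-10, STAT3 and glucocorticoid list 2 of 12 genes were higher (median 0.43), the scavenger receptor Msr1 (10.2-fold) and heme oxygenase Hmox1 (4.45-fold). In the hypoxia and C/EBP list 5 of 16 were higher (median 0.39), among them Cebpb (4.31-fold) and Hif1a (3.69-fold), both regulators of Arg1 by background. In ischemia both were also higher in C1q-low than C1q-high cells, 2.33-fold and 3.31-fold. There 6 of 16 genes of this list were past 2-fold higher and 0 lower, beside 8.89% of 6107 genes higher. Of the IL-4, IL-13 and STAT6 list 7 of 13 were higher and 1 lower, and of the monocyte list 12 of 14 were higher and 0 lower. A part of any of these genes in the Arg1 level was not tested. In the lysosome and lipid list 8 of 20 were higher (median 0.72), led by Fabp5 (10.6-fold), Spp1 (6.33-fold) and Ctsd (4.11-fold), while Gpnmb was at 5 UMIs. Spp1 was also among the markers used for injured PT cells. This list summed to 32153 CPM over all kept ischemia cells and 16671 CPM in macrophage-like ones. The part of tubule RNA in these ratios was not tested.

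Of 13 classical activation genes 2 were higher, the costimulator Cd80 (5.74-fold) and the prostaglandin synthase Ptgs2 (3.34-fold), and 0 lower (median 0.11), with Tnf at 0.595 and Ccl5 at 0.544 of control. Among the lectin and chitinase relatives of the members 5 of 9 were higher and 1 lower (median 1.04), with Clec4d at 16.7-fold, Clec4e at 9.32-fold and Clec4n at 5.35-fold higher. Clec10a, the close paralog of Mgl2 whose reads might be split with it, was at 71.9 and 18.2 CPM, a ratio of 0.253 and so in the direction of Mgl2. Chil4, the close paralog of Chil3, was at 0 UMIs in both.

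**Figure D5:**
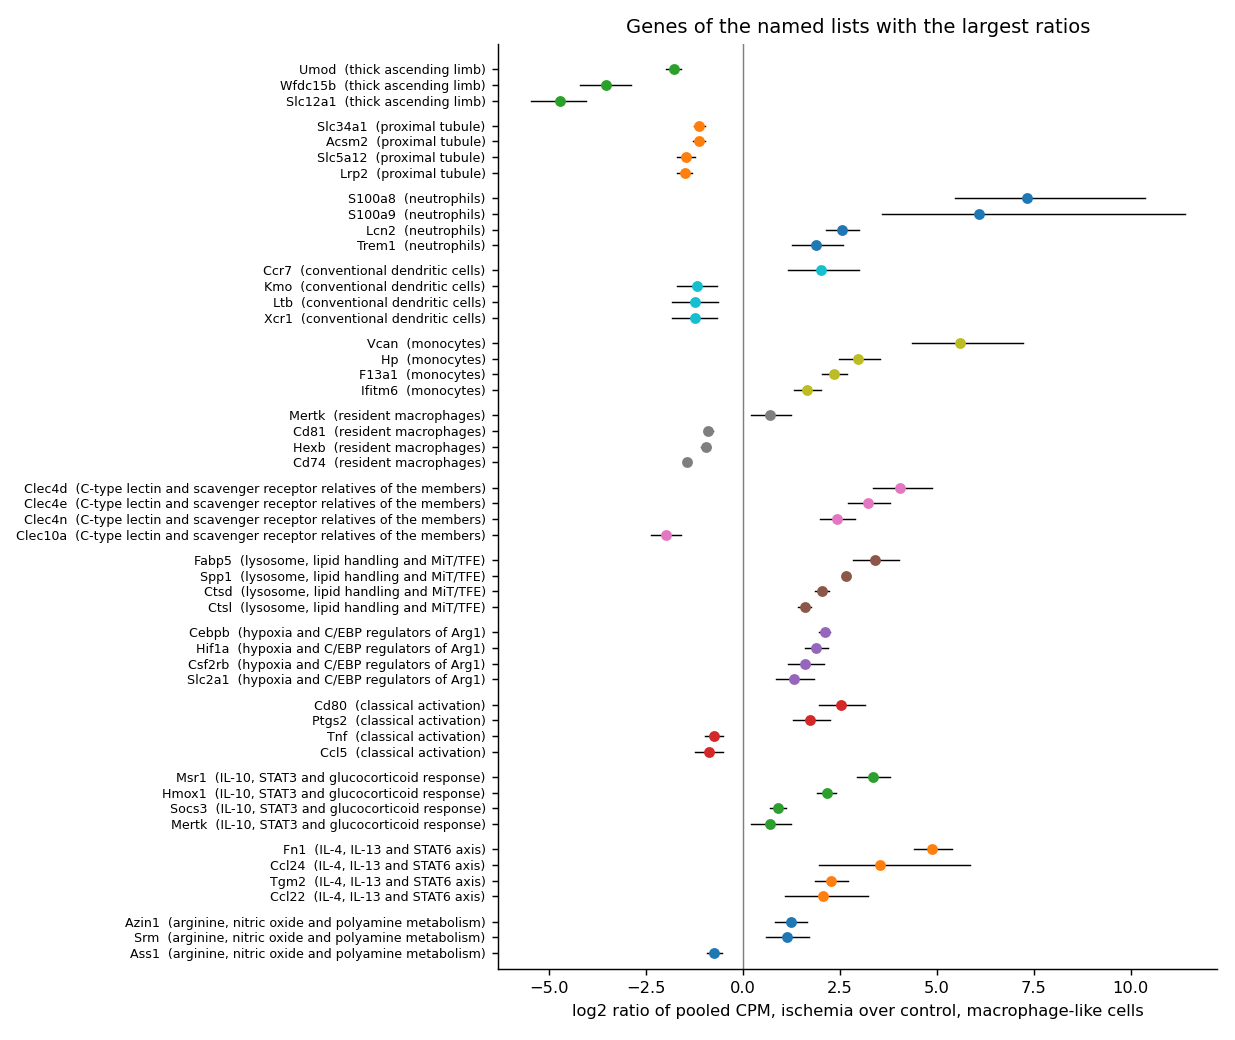
Log2 ratio of ischemia over control pooled CPM in macrophage-like cells for the genes with the largest ratios in each of 13 lists, members left out, with exact 95% intervals as lines. Fn1, Msr1, Fabp5, Clec4d and Vcan lie to the right of 0, and Clec10a, Cd74 and the tubule genes to the left.

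Markers of other cells differed beside these values. Of the monocyte list 8 of 14 were higher and 0 lower (median 1.19), with Vcan at 2.79 and 135 CPM, and of 12 resident macrophage genes 1 was lower, Cd74 (0.365 of control), and 0 higher (median -0.56). Of 15 dendritic cell genes 4 were lower and 1 higher (median -0.69). The neutrophil list had 5 of 6 higher (median 2.22), from S100a8 at 2 and 959 UMIs, and its summed level was 129 CPM in control and 512 CPM in ischemia, while Retnlg, Ly6g, Camp and Ngp were at 0 UMIs in both libraries. The PT list had 8 of 12 lower (median -1.09) and the TAL list 3 of 3 lower (median -3.53). The part of these shifts in the levels of the 7 genes was not tested. Values within the C1q macrophage-like and monocyte-like groups are given above, and the monocyte-like group was itself not made up alike in both libraries.

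The genes whose levels were most like those of each member over 26 groups of cells, each a named population in a library (unnamed clusters such as cluster 15 left out), were found by the correlation of log2(CPM + 10). They were Ccl24 (r = 0.94), Ighg3 and Nxpe5 for Arg1, and Gm21188, Saa3 and Msr1 for Chil3 (0.98 to 0.96). For Mrc1 they were Adgre4, Ear2 and Cd209f (all 0.99), for Mgl2 Clec4b1, Lilra5 and Mmp12, and for Cd209a Mmp13, Clec10a and Siglech. Cd163 had Tmem119, 4930455G09Rik and Col14a1 (0.97 to 0.93), and Gpnmb had lower values, K230015D01Rik at 0.77, Saa1 at 0.72 and Gm16833 at 0.70. All points share 2 libraries, the macrophage-like groups stood apart from the others for most members, and nothing is drawn from these values about function.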

How the data were processed

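Droplet scRNAseq (10x 3' chemistry, v2 kit per the labels) was available for 2 libraries, 1 per condition. The authors deposited raw UMI counts per gene and barcode for each library, made with Cell Ranger 7.0.0 on mm10 per the submitters' processing notes. The 7 genes and the 13 lists were chosen with earlier results of these data known.

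Barcodes were kept from 200 genes upward, between 500 and 150000 UMIs, and up to a mitochondrial share of 55%, which left 12586 of 15110 in control and 13116 of 15257 in ischemia, nearly all losses being to the mitochondrial limit. Cells were clustered with Seurat 5.3.0 in R 4.3.3 after anchor-based integration at resolution 0.3, without the 7 genes among the variable ones, and named from marker lists (at least 3 markers). Macrophage-like cells were clustered again at the resolution giving 4 groups once a B cell-like sub-cluster (37 control and 34 ischemia cells) was left out. That removal, the alternative that drops the top 8% of doublet scores and the alternative without the sub-cluster led by PT genes were chosen after seeing the data. No doublets were removed, since Scrublet called 0 cells.

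Counts were summed over cells to CPM with exact 95% Poisson intervals, shares carry Clopper-Pearson intervals and ratios exact conditional binomial intervals (SciPy 1.17.1), which cover counting error only. No test across conditions was possible with 1 library each. A gene at 0 UMIs was set to 3 counts to give a fold, whose exact lower limit is smaller. No fold was given where both sides had 3 or fewer. Genes named from lists were the up to 4 with the largest log2 ratio among those with 100 or more UMIs, plus list genes at 0 in both libraries. The 3 genes most like each member were named by Pearson's r of log2(CPM + 10) over named populations of at least 20 cells in a library. On simulated counts for 7068 genes of the macrophage-like comparison, intervals covered the true value for 95.8% of unchanged genes. All genes set 4-fold higher were called. For genes set to 0.333 of control, 94% were covered and 98% called. No fold between 1 and 3 or between 0.333 and 1 was simulated, so calls near the fold limit were not checked. The simulation concerns counting error, so it cannot show how the intervals hold where few cells carry most UMIs of a gene. Alternatives covered cell filters, clustering, the C1q cut, weighting of cells and depth. Gene positions were taken from GENCODE M21 (GRCm38).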

Additional observations from a re-analysis of the deposited data

Results flagged for a closer look

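Barcodes removed by the cell filters, which enter no comparison, held Chil3 at 0.773 CPM (0.386 to 1.38) in ischemia, from 11 of 14226196 UMIs, against 1 of 18006876 UMIs in control. It was listed because the level lay above that of the control barcodes. The other 6 genes were at 0 to 7 UMIs in these barcodes of either library.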

How the results depend on the processing

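No paired analysis was possible because each condition had 1 library and the labels give no replicate numbers. No ratio of a called gene changed direction under any alternative run. Of 68 counts of members 59 stayed within 1.5 times and 9 did not, and of 379 ratios 327 moved by less than their interval. Among the other values, 19 of 56 sub-cluster levels, 10 of 76 shares and 10 of 234 counts of list genes were counted as moved. Without the 3 cells with most UMIs of each gene, the count past 2-fold between ischemia and control was 2 in C1q-high and 3 in C1q-low cells, and 2 between the C1q classes in control. With each cell thinned to 1000 UMIs it was 2 in macrophage-like, 1 in C1q-high and 1 in C1q-low cells, and 1 between the C1q classes in control and 1 in ischemia. Thinning and leaving out the 3 highest cells both leave fewer genes at 100 UMIs by construction. A lower count is therefore not by itself a smaller difference. In C1q-low cells the Cd209a ratio was 0.0331 without the 3 highest cells, against 0.0747 with them. Shares over all genes were not computed under the alternatives, so nothing is read from these counts. At a C1q cut of 1% the count in C1q-high cells was 2. Across alternatives the macrophage-like ratio ran from 1.27 to 2.26 for Mrc1, 0.222 to 0.266 for Mgl2, 0.0639 to 0.133 for Cd209a and 13.4 to 78.8 for Chil3. For Arg1, with control put at 3 counts, it ran from 9.27 to 78.5. Leaving out Scrublet doublets was not run, since it called 0 cells. The one without cells holding 3 or more tubule UMIs gave no value, since 0 control and 1 ischemia cells were left. Depth limits Cd163 and Gpnmb, which had 20 and 0 UMIs in control and 59 and 5 in ischemia macrophage-like cells.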
